A study of Homo sapiens with 6 samples.

Results

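Forkhead box (FOX) transcription factors were followed at the transcript level in human induced pluripotent stem cells. The family was taken as each row whose GENCODE 44 symbol is FOX, a subclass letter from A to S and a number, with the copies of FOXD4 and FOXO3B included. This gave 51 of the 19977 genes counted, in 19 subclasses. FOX proteins bind DNA through a winged helix domain, and the letter in the name groups proteins by how alike these domains are. In pluripotent and early embryonic cells FOXH1 carries NODAL signals together with SMAD proteins, FOXO proteins are held out of the nucleus by AKT when growth factor signalling is active, and FOXM1 drives genes of mitosis. Others, such as FOXA2 in endoderm, FOXD3 in neural crest and FOXI3 in the ectoderm of the cranial placodes, are known for their part in specific lineages.

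The cells were NCRM-1, a wild type human iPSC line that was made with episomal vectors from cord blood cells carrying CD34, dissociated to single cells and grown as aggregates for 4 days in vertical wheel bioreactors. The study screened several medium additives in combination and modelled growth, pluripotency and aggregate stability. Its optimized medium held polyethylene glycol (PEG) and heparin. In the group called PEG and HS, 3 libraries came from E8 medium that held heparin sodium salt at 0.1 µg/ml and PEG at 10 mg/ml. In the group called E8 control, 3 libraries came from E8 medium alone, and in both groups 50% of the medium was replaced once. The treatment text of the labels describes both additives for each of the 6 libraries, and the treatment label of each library was followed here. The labels read as 1 bioreactor per medium, so the effect of the vessel cannot be told apart from that of the medium. Each p-value then measures the spread between samples that may share a vessel.

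Each library held 26991279 to 36185138 counts on genes. Levels are given as CPM, counts relative to the TMM-scaled library size and not corrected for gene length, for replicates 1, 2 and 3 in that order, and as mean ± SD with n = 3. Where means are given without an SD, as one against another, PEG and HS stands first. Differences between media were tested by edgeR's quasi-likelihood method in 16505 genes with at least 10 counts in all, and p-values were adjusted over these genes after Benjamini-Hochberg. A gene was called at an adjusted p under 0.05, and log2 fold changes (log2 change) above 0 mean more transcript in PEG and HS. The replicate spread was low, with a common biological coefficient of variation of 3.12%, and some small differences therefore passed the test. Pluripotency markers were high in both media, the lowest of 8 marker means being 126 CPM, and the cells fit their label in this respect. Their levels still differed between media. Called higher were 3 (POU5F1, ZFP42 and NANOG, the last at 185 against 126 CPM), beside 12.2% of all genes. Called lower were 3 (LIN28A, PODXL and SOX2, the last at 273 against 412 CPM), beside 13.1%.

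Of the 51 forkhead genes, 38 had enough counts to be tested, and 12 of these (31.6%) were called, where 25.3% of all genes tested were called. FOXD3, FOXK1, FOXN2 and FOXO3 were higher in PEG and HS, which is 10.5% of the 38 against 12.2% of all genes. FOXB2, FOXH1, FOXI2, FOXI3, FOXJ1, FOXO4, FOXP1 and FOXP4 were lower, which is 21.1% against 13.1%. The median log2 fold change of the 38 was -0.056, against 0.0031 over all genes. The summed level of the 51 genes was 1203 to 1216 CPM in PEG and HS and 1214 to 1229 CPM in E8 control, and these ranges overlap. Most changes were small. Among the 12 called genes 9 changed by less than 1.5-fold, and FOXB2 and FOXI3 changed by more than 2-fold. FOXB2 had enough counts to be tested through E8 control alone. In 20 of the 38 genes (52.6%) the media did not overlap, against 39.3% of all genes.

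**Figure D1:**
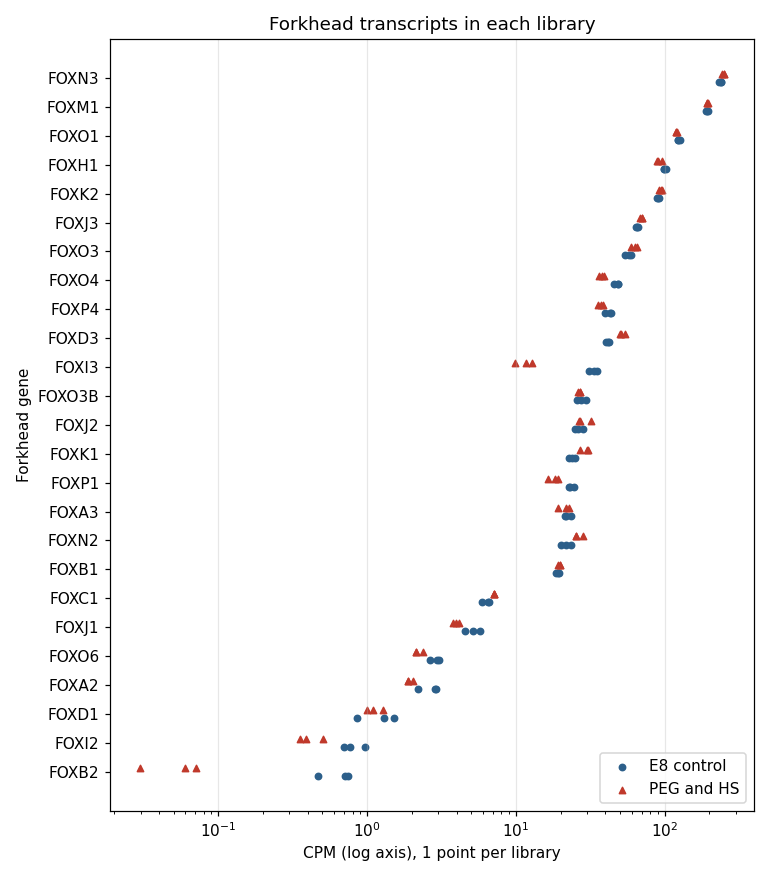
CPM of the 25 forkhead genes that were at 1 CPM or more in each library of a medium or were called, on a log axis, with 1 point per library (circles E8 control, triangles PEG and HS). FOXI3, FOXI2 and FOXB2 stand out by the distance between media, and most other genes lie close together.

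Before the values of single genes, the 250 bases upstream of the annotated start are shown for 4 genes, FOXI3, FOXI2, FOXB2 and FOXD3, which by log2 fold change are the 3 called genes that fell most and the called gene that rose most. They are from RefSeq (GRCh38.p14) and are written 5′ to 3′ on the strand of the gene. The windows are chr2:88452694-88452943 on the minus strand for FOXI3, and on the plus strand chr10:127736935-127737184 for FOXI2, chr9:77019405-77019654 for FOXB2 and chr1:63322317-63322566 for FOXD3. Capitals mark GC boxes, GGGCGG or its reverse complement, and adjoining boxes may overlap.
FOXI3: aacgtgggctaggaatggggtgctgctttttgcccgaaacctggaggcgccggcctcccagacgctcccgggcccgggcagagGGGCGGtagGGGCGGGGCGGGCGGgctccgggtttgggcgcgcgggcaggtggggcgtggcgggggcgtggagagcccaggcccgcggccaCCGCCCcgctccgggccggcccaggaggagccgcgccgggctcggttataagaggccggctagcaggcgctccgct
FOXI2: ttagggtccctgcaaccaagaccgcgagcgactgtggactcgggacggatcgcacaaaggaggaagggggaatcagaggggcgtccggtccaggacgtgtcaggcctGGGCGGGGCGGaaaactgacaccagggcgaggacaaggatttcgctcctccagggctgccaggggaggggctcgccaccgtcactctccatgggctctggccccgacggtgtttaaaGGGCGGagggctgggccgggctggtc
FOXB2: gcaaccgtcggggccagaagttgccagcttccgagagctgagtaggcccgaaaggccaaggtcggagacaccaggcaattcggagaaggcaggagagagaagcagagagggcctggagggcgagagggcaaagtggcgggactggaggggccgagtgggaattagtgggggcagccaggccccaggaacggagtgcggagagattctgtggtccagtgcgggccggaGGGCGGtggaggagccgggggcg
FOXD3: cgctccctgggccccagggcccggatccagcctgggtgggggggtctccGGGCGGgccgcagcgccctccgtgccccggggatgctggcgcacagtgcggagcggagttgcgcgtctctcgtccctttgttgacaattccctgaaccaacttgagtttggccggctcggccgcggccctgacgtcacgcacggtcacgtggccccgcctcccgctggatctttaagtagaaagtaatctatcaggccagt

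These windows are rich in G and C. The FOXI3 window is 77.2% GC, with 31 CpG dinucleotides and 5 GC boxes. FOXI2 and FOXB2 are both at 66.8% GC, with 19 and 16 CpG, and FOXD3 is at 67.6% with 24. Over the 40 forkhead genes that could be matched to the RefSeq promoter table, the median was 67% GC and 20.5 CpG, against 58% and 11 over all 35116 windows of the table. The 18 matched genes at 1 CPM or more had a median of 73.8% GC and 29.5 CpG, and the 22 below that level had 64.2% and 14. FOXH1, FOXM1, FOXN2, FOXJ1 and FOXA2, also at 1 CPM or more, were not matched and are missing from this comparison. The 22 hold FOXD4 and its copies, which share much of their sequence and are not separate observations. GC boxes were present in 26 of the 40 windows (65%) and in 42.6% of all windows. Searched on both strands in the same way, the letters TATAAA were found in 6 windows (15%, against 10.7%), TAATCC, which OTX proteins bind, in 2 (5%, against 5.62%), TGTGNATT, a FOXH1 motif, in 1 (2.5%, against 2.89%) and TGTTTAC, the forkhead core, in 0 (against 2.98%). Such matches describe the letters in these windows and are not sites shown to be bound.

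FOXI3 (ENSG00000214336, chromosome 2, 88446787 to 88452693 of GRCh38, minus strand) encodes a factor of the preplacodal ectoderm and of ear, tooth and hair development. It was counted at 9.93, 11.8 and 12.9 CPM in PEG and HS against 31.1, 35.3 and 33.5 CPM in E8 control. Each PEG and HS library lay far below each E8 control library. The level was 2.90-fold lower in PEG and HS (11.5 ± 1.48 CPM in PEG and HS against 33.3 ± 2.10 CPM in E8 control, log2 change -1.53 with SE 0.078, adjusted p = 1.04e-09). The call held under all 14 alternative settings in which it was refitted, with a log2 fold change of -1.63 to -1.43 and an adjusted p of at most 4.36e-08 with 1 library left out. Per kilobase of exon, FOXI3 ranked 7 among the forkhead genes in E8 control and 16 in PEG and HS.

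FOXI2 (ENSG00000186766, chromosome 10, 127737185 to 127741183), a relative of FOXI3 also known from ectoderm, had few counts. There were 12, 11 and 17 counts in PEG and HS against 19, 25 and 35 counts in E8 control, or 0.356, 0.389 and 0.502 CPM in PEG and HS against 0.704, 0.770 and 0.970 CPM in E8 control. The media did not overlap, and the level was lower in PEG and HS (log2 change -0.97 with SE 0.32, adjusted p = 0.0365). This call was lost with DESeq2 and without PEG and HS replicate 1 or 2 or E8 control replicate 2 or 3, where the adjusted p reached 0.135. FOXI1, the third gene of the subclass and a factor of acid-secreting cells in inner ear and kidney, had no count in any library. The subclass sum was 10.3, 12.2 and 13.4 CPM in PEG and HS against 31.8, 36.0 and 34.5 CPM in E8 control, nearly all of it FOXI3.

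FOXB2 (ENSG00000204612, chromosome 9, 77019655 to 77020953) and FOXB1 are factors of the developing neural tube and diencephalon. FOXB2 had 2, 2 and 1 counts in PEG and HS against 20, 23 and 17 counts in E8 control, which is 0.0593, 0.0708 and 0.0295 CPM in PEG and HS against 0.741, 0.708 and 0.471 CPM in E8 control. All E8 control libraries lay above all PEG and HS libraries. With 5 counts in all against 60, the ratio of E8 control to PEG and HS was 12.0 (95% interval 4.88 to 38.4), an exact interval that covers counting error only, and the edgeR fit gave log2 change -3.51 with SE 0.53, adjusted p = 0.000156. With 1 library left out the adjusted p was at most 0.00144. FOXB1 (ENSG00000171956, chromosome 15, 60004234 to 60061730) had more counts and overlapped between media, with 19.9, 19.9 and 19.3 CPM in PEG and HS against 18.6, 19.6 and 19.2 CPM in E8 control (log2 change 0.038 with SE 0.053, adjusted p = 0.659).

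**Figure D2:**
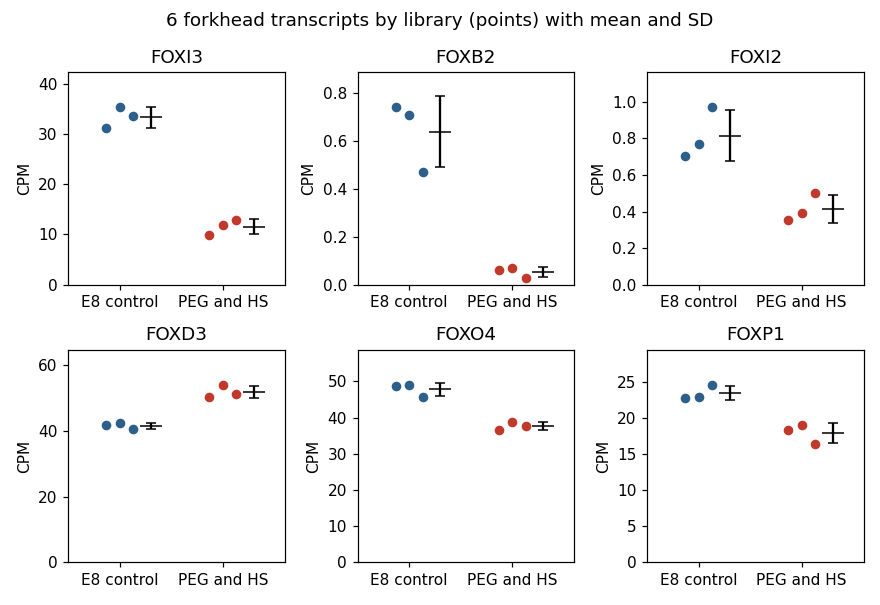
CPM in each of the 3 libraries per medium for 6 called forkhead genes, with the mean (horizontal line) and SD beside the points, each panel on its own linear axis from 0. In each panel shown the points of one medium lie wholly above those of the other, and PEG and HS is the lower medium in each but FOXD3.

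Neuroectoderm markers moved in the same direction as FOXI3, FOXI2 and FOXB2, beside 12.2% of all genes higher and 13.1% lower. Of the 8 markers (PAX6, SOX1, LHX2, LHX5, OTX2, HES5, SIX3 and ZIC1), 7 were lower in PEG and HS and 0 higher, none was at 0 in all libraries, and their summed level was 32.3, 36.9 and 35.8 CPM in PEG and HS against 135, 135 and 131 CPM in E8 control. Most of this sum and of its fall came from OTX2 (18.6 against 79.4 CPM) and LHX5 (5.73 against 29.6 CPM). OTX2 is also active in primed pluripotent cells. The study itself reports SOX1, LHX5 and OTX2 as lower with PEG and heparin from the same RNA, so these markers are not independent support. Of 6 trophectoderm and amnion markers 5 were tested and 2 were lower, with sums of 6.91, 7.15 and 7.15 CPM in PEG and HS against 14.7, 15.6 and 15.6 CPM in E8 control. The lower sum came from TFAP2A (0.603 against 6.00 CPM) and KRT7 (3.76 against 7.10 CPM), and GABRP was at 2.29 against 1.69 CPM without overlap and was not called, while CDX2, which defines trophectoderm, was at 0.00988 against 0.0247 CPM. In bulk RNA, fewer cells of a type and less RNA per cell cannot be told apart. The part of these markers in the forkhead results was not tested.

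FOXD3 (ENSG00000187140, chromosome 1, 63322567 to 63325128) is needed in the mouse epiblast to keep pluripotent cells and acts later in neural crest. Of the 4 called forkhead genes that rose it had the largest log2 fold change, with 50.3, 54.0 and 51.3 CPM in PEG and HS against 41.9, 42.3 and 40.5 CPM in E8 control. The lowest PEG and HS library lay above the highest E8 control library. The level was 1.25-fold higher (51.9 ± 1.91 CPM in PEG and HS against 41.6 ± 0.943 CPM in E8 control, log2 change 0.32 with SE 0.040, adjusted p = 2.85e-05), and with 1 library left out the adjusted p was at most 0.000314. FOXD1 (ENSG00000251493, chromosome 5, 73444827 to 73448777), a factor of renal stroma and retina, overlapped between media at 1.28, 1.10 and 1.0 CPM in PEG and HS against 1.30, 1.51 and 0.859 CPM in E8 control (log2 change -0.11 with SE 0.25, adjusted p = 0.805). FOXD4 had too few counts to show a difference, at 0.0748 against 0.0957 CPM.

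The other 6 members of the subclass were not tested. FOXD2 had 5 counts over the 6 libraries, FOXD4L1, FOXD4L3, FOXD4L4 and FOXD4L5 had 2, 3, 9 and 6, and FOXD4L6 had none. FOXD4 and its 5 copies share 56.4% to 95.7% of their 31-base transcript words with other genes, so their few reads cannot be assigned with confidence.

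Genes of neural crest that are studied with FOXD3 were lower more often than higher. Of 12 such genes, all tested, 1 was higher and 4 were lower in PEG and HS, with a median log2 fold change of -0.63. For this and the following lists the scale is all genes tested, of which 12.2% were higher and 13.1% lower with a median of 0.0031. SNAI2, TFAP2B, PAX3, MSX1 and MSX2 had means under 1 CPM in both media, with SE up to 0.54, and of these only MSX2 was called. The list median lies between PAX3 (log2 change -0.78, not called) and SOX10 (-0.48). SOX9, at a higher level, had a log2 change of -0.18 and was not called. TFAP2A, an AP-2 factor of neural crest, surface ectoderm and amnion, fell most, from 5.97, 6.25 and 5.79 CPM in E8 control to 0.890, 0.566 and 0.355 CPM in PEG and HS (log2 change -3.30 with SE 0.20, adjusted p = 9.84e-09). SOX10, MSX2 and ZIC1 were the other genes that fell, and ZIC1 is also a neuroectoderm and TFAP2A an amnion marker. ETS1, a factor that is also used by endothelial cells, was higher at 55.3 ± 2.30 CPM in PEG and HS against 49.6 ± 2.02 CPM in E8 control (log2 change 0.16 with SE 0.042, adjusted p = 0.0129). ERBB3, a neuregulin receptor with the highest CPM of the list, was at 143 ± 1.05 CPM in PEG and HS against 142 ± 0.585 CPM in E8 control (log2 change 0.013 with SE 0.027, adjusted p = 0.780). The 5 calls became 3 without PEG and HS replicate 1 or without E8 control replicate 1.

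Genes of forebrain and placodes, the latter a site of FOXI3, included more falls than rises. Of 12 genes 1 was higher and 5 were lower, and the median log2 fold change was -0.42. SIX6, a homeobox gene of the eye field, was higher at 13.6 ± 0.771 CPM in PEG and HS against 7.55 ± 0.136 CPM in E8 control (log2 change 0.85 with SE 0.071, adjusted p = 3.45e-07). HESX1, a homeobox repressor of the anterior neural plate and pituitary, was at 7.95 ± 0.560 CPM in PEG and HS against 10.5 ± 0.243 CPM in E8 control (log2 change -0.39 with SE 0.075, adjusted p = 0.00120). OTX2, a homeobox factor of the forebrain that is also active in primed pluripotent cells, had 18.6 against 79.4 CPM (log2 change -2.10 with SE 0.047, adjusted p = 2.08e-13). DLX5, a homeobox gene of placodes and branchial arches, had 2, 1 and 0 counts in PEG and HS against 5, 18 and 12 counts in E8 control. Its ratio of E8 control to PEG and HS was 11.7 (95% interval 3.69 to 59.5) by counting error. DLX5 reached the minimum of 10 counts through E8 control alone. SIX3 and PAX6 were also lower, and SIX3, PAX6, OTX2 and LHX2 of this list stand among the neuroectoderm markers as well.

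FOXH1 (ENSG00000160973, chromosome 8, 144473412 to 144475849), which recruits SMAD2 and SMAD3 with SMAD4 to NODAL target genes, had the highest level of the family in E8 control per kilobase of merged exons. It was counted at 91.0, 95.6 and 89.5 CPM in PEG and HS against 99.3, 102 and 99.5 CPM in E8 control. The media did not overlap, but the difference was small (92.1 ± 3.18 CPM in PEG and HS against 100.4 ± 1.64 CPM in E8 control, log2 change -0.13 with SE 0.033, adjusted p = 0.0109), and without PEG and HS replicate 3 the adjusted p rose to 0.0502. FOXH1 overlaps KIFC2 on the opposite strand, and whether the counting used strand is not given in the sources used here.

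The partners and response genes of FOXH1 moved both ways. Of 16 genes 3 were higher (SMAD3, NODAL and LEFTY1) and 3 lower (SMAD4, ACVR1B and DRAP1), with a median log2 fold change of 0.018. SMAD4, the shared SMAD of NODAL and BMP signalling, was at 102, 104 and 103 CPM in PEG and HS against 127, 127 and 126 CPM in E8 control (log2 change -0.30 with SE 0.028, adjusted p = 1.37e-06), without overlap. LEFTY1, a secreted NODAL inhibitor induced by the pathway, was at 16.5, 15.5 and 16.5 CPM in PEG and HS against 7.64, 10.2 and 9.28 CPM in E8 control (log2 change 0.83 with SE 0.085, adjusted p = 3.14e-06), and it has a close paralog in LEFTY2, so reads may be split between them. ACVR2B, an activin and NODAL receptor, was at 176.5 ± 8.14 CPM in PEG and HS against 185 ± 2.98 CPM in E8 control (log2 change -0.068 with SE 0.033, adjusted p = 0.161). TDGF1, the NODAL co-receptor and the gene with the highest CPM of the list, was at 563 against 544 CPM and did not pass the test (adjusted p = 0.186).

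The FOXO genes, effectors of insulin and AKT signalling, split by member. FOXO4 (ENSG00000184481, chromosome X, 71095851 to 71103532) was lower in PEG and HS, at 36.5, 38.9 and 37.7 CPM in PEG and HS against 48.6, 49.0 and 45.8 CPM in E8 control, with no overlap (37.7 ± 1.21 CPM in PEG and HS against 47.8 ± 1.75 CPM in E8 control, log2 change -0.34 with SE 0.043, adjusted p = 2.48e-05). With 1 library left out its adjusted p was at most 0.000450. FOXO1 (ENSG00000150907, chromosome 13, 40555667 to 40666641), the most abundant of the subclass per kilobase, was at 120.0, 119 and 122 CPM in PEG and HS against 124, 122 and 128 CPM in E8 control and was not called although the libraries did not overlap (log2 change -0.048 with SE 0.030, adjusted p = 0.267). It shares 22.1% of its transcript words with another annotated gene. FOXO6 (ENSG00000204060, chromosome 1, 41361922 to 41383590), known from brain, was at 2.14, 2.37 and 2.13 CPM in PEG and HS against 2.63, 3.05 and 2.94 CPM in E8 control, also without overlap and not called (log2 change -0.38 with SE 0.15, adjusted p = 0.0682). The subclass sum was 246, 252 and 253 CPM in PEG and HS against 262, 256 and 262 CPM in E8 control.

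FOXO3 (ENSG00000118689, chromosome 6, 108559835 to 108684774) was higher in PEG and HS by a narrow margin, at 59.8, 64.9 and 63.6 CPM in PEG and HS against 57.3, 53.8 and 59.7 CPM in E8 control (62.8 ± 2.66 CPM in PEG and HS against 56.9 ± 2.97 CPM in E8 control, log2 change 0.14 with SE 0.044, adjusted p = 0.0303). The lowest PEG and HS library lay just above the highest E8 control library. The call was lost without PEG and HS replicate 2 or 3 or E8 control replicate 1 or 2, with an adjusted p of up to 0.155. FOXO3B (ENSG00000240445, chromosome 17, 18667629 to 18682314), a copy on another chromosome that is near-identical in part of its sequence, was at 27.2, 26.3 and 27.1 CPM in PEG and HS against 29.5, 27.4 and 25.9 CPM in E8 control and overlapped (log2 change -0.034 with SE 0.053, adjusted p = 0.698). FOXO3 shares 46.0% and FOXO3B 65.9% of their transcript words, mostly with each other. With the reads of both added, the log2 fold change was 0.083 and the adjusted p 0.0978, so the call did not hold for the sum of the copies. Their coding sequences, of 2019 bases in FOXO3 and 870 in FOXO3B, are 98.9% identical over the 615 bases that aligned. A stretch of 90 bases shows how alike the aligned parts are, from bases 263 to 352 of the FOXO3 and 518 to 607 of the FOXO3B coding sequence in GENCODE 44, with the 2 differing bases in capitals.
FOXO3: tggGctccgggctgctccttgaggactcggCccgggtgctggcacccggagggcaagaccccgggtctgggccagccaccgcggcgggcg
FOXO3B: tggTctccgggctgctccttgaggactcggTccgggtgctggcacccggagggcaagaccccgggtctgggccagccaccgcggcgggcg

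The genes that control FOXO proteins moved both ways. Of 23 genes 5 were higher and 3 lower, with a median log2 fold change of 0.027. The list runs from the insulin receptor over AKT to the 14-3-3 proteins and also holds SKP2, USP7 and SIRT1. Of these last genes SKP2 and USP7 were among the higher and SIRT1 among the lower. INSR, the insulin receptor, fell most, with 30.7 ± 0.789 CPM in PEG and HS against 43.5 ± 1.89 CPM in E8 control (log2 change -0.50 with SE 0.045, adjusted p = 7.59e-07). SGK1, a kinase that phosphorylates FOXO3, rose most, with 23.5 ± 0.766 CPM in PEG and HS against 18.2 ± 0.716 CPM in E8 control (log2 change 0.37 with SE 0.054, adjusted p = 0.000132). YWHAE and YWHAZ, 14-3-3 proteins that bind phosphorylated FOXO and the genes with the highest CPM of the list, were at 921 against 927 and 891 against 867 CPM with adjusted p = 0.855 and 0.329.

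Genes known as FOXO targets were lower more often than higher. Of 15 tested genes 2 were higher (SESN1 and BNIP3) and 7 were lower (CDKN1B, BCL2L11, CCNG2, SESN3, CITED2, IRS2 and BCL6), with a median log2 fold change of -0.21. CITED2, a CBP and p300 binding protein that also answers to hypoxia and other signals, had 39.9, 42.5 and 39.6 CPM in PEG and HS against 98.1, 99.9 and 98.5 CPM in E8 control (log2 change -1.28 with SE 0.036, adjusted p = 1.39e-12). SESN3, a sestrin that restrains mTORC1, had 52.8, 55.6 and 55.4 CPM in PEG and HS against 120.0, 121 and 129 CPM in E8 control (log2 change -1.18 with SE 0.037, adjusted p = 4.67e-12). In both genes each PEG and HS library was well below each E8 control library. CDKN1B, the cell cycle inhibitor p27, had 29.4 ± 0.342 CPM in PEG and HS against 37.2 ± 1.09 CPM in E8 control (log2 change -0.34 with SE 0.043, adjusted p = 3.41e-05). SESN1, another sestrin, was higher, with 29.8 ± 0.946 CPM in PEG and HS against 26.0 ± 0.665 CPM in E8 control (log2 change 0.20 with SE 0.048, adjusted p = 0.00637). The list comprises genes that other factors control too, and FOXO activity was not measured. SOD2 was listed but not matched to a row.

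**Figure D3:**
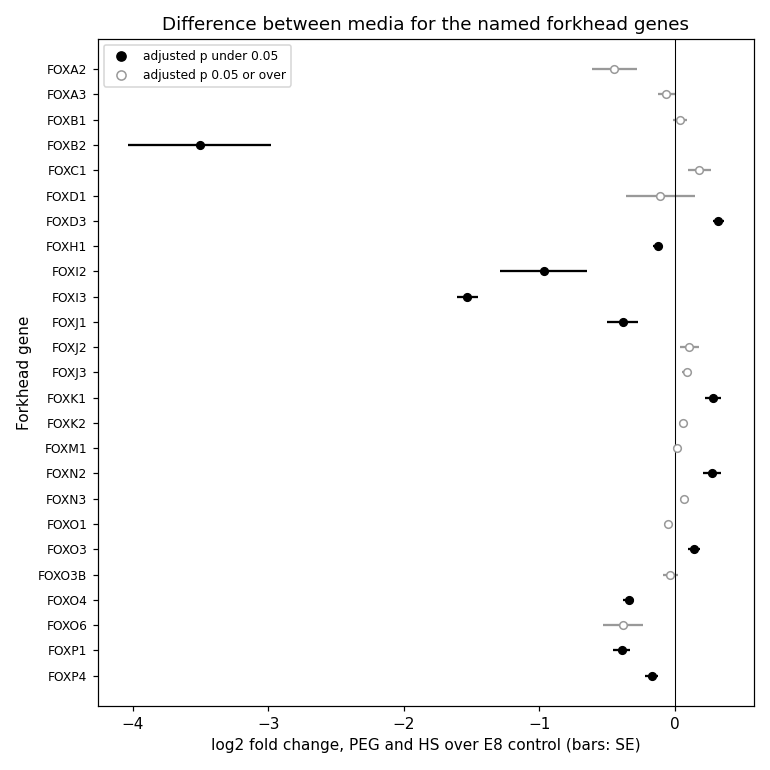
Log2 fold change (PEG and HS over E8 control) of the 25 forkhead genes at 1 CPM or more in each library of a medium or called, in order of subclass, with bars of 1 SE, filled where the adjusted p was under 0.05. Among the filled points FOXB2 lies farthest left at -3.51, FOXI3 at -1.53 has a narrow bar and FOXD3 at 0.32 is the highest.

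FOXP1 and FOXP4 were lower in PEG and HS. FOXP proteins are repressors that act as dimers, and FOXP1 has a splice form specific to pluripotent cells, which gene counts do not resolve. FOXP1 (ENSG00000114861, chromosome 3, 70954693 to 71583978) was at 18.3, 19.1 and 16.5 CPM in PEG and HS against 22.9, 23.0 and 24.6 CPM in E8 control, with no overlap (18.0 ± 1.35 CPM in PEG and HS against 23.5 ± 0.975 CPM in E8 control, log2 change -0.39 with SE 0.062, adjusted p = 0.000232), and kept its call with any library left out (adjusted p at most 0.00238). An overlapping readthrough gene, ENSG00000285708, had 37 counts in PEG and HS and 61 in E8 control. FOXP4 (ENSG00000137166, chromosome 6, 41546381 to 41602384), a relative active in lung and gut development, was at 38.4, 37.3 and 35.9 CPM in PEG and HS against 43.3, 42.8 and 39.8 CPM in E8 control, also without overlap (log2 change -0.17 with SE 0.046, adjusted p = 0.0116), and without PEG and HS replicate 3 the adjusted p was 0.0539. FOXP2, known from speech and language development, and FOXP3, the factor of regulatory T cells, were both under 1 CPM, at 0.639 against 0.621 and 0.739 against 0.715 CPM, and were not called.

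FOXK1 (ENSG00000164916, chromosome 7, 4682295 to 4771442), a repressor with a role in glycolysis and autophagy, was higher in PEG and HS at 26.9, 30.0 and 30.6 CPM in PEG and HS against 25.1, 22.9 and 24.0 CPM in E8 control, with no overlap (29.2 ± 1.99 CPM in PEG and HS against 24.0 ± 1.06 CPM in E8 control, log2 change 0.28 with SE 0.058, adjusted p = 0.00202). With 1 library left out the adjusted p was at most 0.0119. FOXK2 (ENSG00000141568, chromosome 17, 82519713 to 82644662), its partner in recruiting the BAP1 deubiquitinase, was higher per kilobase and not called, at 91.7, 94.3 and 95.4 CPM in PEG and HS against 88.6, 90.1 and 91.1 CPM in E8 control (log2 change 0.060 with SE 0.031, adjusted p = 0.181), although the libraries did not overlap. Of 11 cofactors of FOXK and FOXP proteins 2 were higher (HDAC2 and CTBP2) and 3 lower, ASXL1 and HDAC1 among them, with a median log2 fold change of 0.013. ASXL1, the partner of BAP1, was at 37.7 ± 1.93 CPM in PEG and HS against 45.5 ± 1.14 CPM in E8 control (log2 change -0.27 with SE 0.045, adjusted p = 0.000294). HDAC2, a histone deacetylase, was at 395 ± 10.2 CPM in PEG and HS against 358 ± 9.19 CPM in E8 control (log2 change 0.14 with SE 0.029, adjusted p = 0.00195). HCFC1, a chromatin cofactor, was at 389 ± 5.40 CPM in PEG and HS against 380.0 ± 5.27 CPM in E8 control (log2 change 0.035 with SE 0.025, adjusted p = 0.360).

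FOXN2 (ENSG00000170802, chromosome 2, 48314637 to 48379295) was higher in PEG and HS, at 28.5, 25.6 and 25.3 CPM in PEG and HS against 21.8, 20.1 and 23.7 CPM in E8 control, with no overlap (26.4 ± 1.76 CPM in PEG and HS against 21.9 ± 1.80 CPM in E8 control, log2 change 0.27 with SE 0.066, adjusted p = 0.00643), and kept its call with any library left out (adjusted p at most 0.0470). FOXN3 (ENSG00000053254, chromosome 14, 89124871 to 89619149), a repressor linked to the DNA damage checkpoint, had the highest CPM of the family without correction for length, at 252, 242 and 252 CPM in PEG and HS against 232, 240.3 and 239.9 CPM in E8 control. Its libraries did not overlap, but it was not called (log2 change 0.066 with SE 0.028, adjusted p = 0.101). FOXN4, a factor of retina and spinal cord, was at 0.554 against 0.573 CPM and not called, and FOXN1, the factor of thymic epithelium, had no count.

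FOXM1 (ENSG00000111206, chromosome 12, 2857680 to 2877174), the activator of G2 and M phase genes, overlapped between media, at 192, 193 and 196 CPM in PEG and HS against 192, 189.6 and 195 CPM in E8 control (log2 change 0.012 with SE 0.027, adjusted p = 0.799). It overlaps RHNO1 and ITFG2 on the opposite strand. Of 17 genes of the FOXM1 and MuvB programme 2 were higher (CENPE and TOP2A) and 3 lower (PLK1, CDC25B and LIN54), with a median log2 fold change of 0.0097. CDC25B, a phosphatase that starts mitosis, was at 33.9 ± 1.87 CPM in PEG and HS against 41.7 ± 0.653 CPM in E8 control (log2 change -0.30 with SE 0.046, adjusted p = 0.000165). CENPE, a kinetochore motor, was at 105 ± 7.98 CPM in PEG and HS against 95.4 ± 5.56 CPM in E8 control and overlapped between media (log2 change 0.15 with SE 0.051, adjusted p = 0.0480). TOP2A, the topoisomerase of dividing cells, was at 620.2 ± 12.6 CPM in PEG and HS against 576 ± 15.8 CPM in E8 control (log2 change 0.11 with SE 0.028, adjusted p = 0.00963). CENPF, another kinetochore protein, was at 375 ± 16.7 CPM in PEG and HS against 365 ± 16.8 CPM in E8 control (log2 change 0.041 with SE 0.037, adjusted p = 0.473). The 5 calls became 2 without E8 control replicate 2 and 3 without PEG and HS replicate 3 or E8 control replicate 3.

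FOXJ1 (ENSG00000129654, chromosome 17, 76136333 to 76141245), the master regulator of motile cilia, was low and slightly lower in PEG and HS, at 4.12, 3.79 and 3.96 CPM in PEG and HS against 4.56, 5.76 and 5.15 CPM in E8 control. The libraries did not overlap (3.96 ± 0.168 CPM in PEG and HS against 5.16 ± 0.598 CPM in E8 control, log2 change -0.38 with SE 0.11, adjusted p = 0.0226), but the call was lost with DESeq2 and without PEG and HS replicate 2 or 3 or E8 control replicate 2 or 3, where the adjusted p reached 0.117. Of 12 motile cilium genes 10 were tested and 0 were called by edgeR, DESeq2 or limma-voom, and 0 had an unadjusted p under 0.05 in edgeR. Their median log2 fold change was -0.071. The highest CPM were those of RFX3 at 31.6 against 30.2 CPM and RFX2 at 4.75 against 5.01 CPM, both regulators of cilium genes with adjusted p = 0.369 and 0.595. FOXJ2 (ENSG00000065970, chromosome 12, 8032716 to 8055517) overlapped, at 32.0, 27.1 and 26.4 CPM in PEG and HS against 25.1, 26.3 and 28.1 CPM in E8 control (log2 change 0.11 with SE 0.069, adjusted p = 0.301). FOXJ3 (ENSG00000198815, chromosome 1, 42176539 to 42335877), which is known from muscle, was at 67.9, 70.4 and 70.4 CPM in PEG and HS against 65.3, 64.7 and 66.4 CPM in E8 control, with no overlap between the media (log2 change 0.087 with SE 0.033, adjusted p = 0.0697), and was called with scaling by library size alone (adjusted p = 0.0445).

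The FOXA genes, pioneer factors of endoderm, were not called. FOXA2 (ENSG00000125798, chromosome 20, 22580998 to 22585455) was at 2.05, 1.88 and 1.89 CPM in PEG and HS against 2.89, 2.86 and 2.22 CPM in E8 control, with no overlap between the media (1.94 ± 0.0943 CPM in PEG and HS against 2.66 ± 0.381 CPM in E8 control, log2 change -0.45 with SE 0.16, adjusted p = 0.0609), and without E8 control replicate 3 it passed the test (adjusted p = 0.0299). FOXA3 (ENSG00000170608, chromosome 19, 45863989 to 45873797), the liver member, was at 19.3, 22.9 and 21.8 CPM in PEG and HS against 21.3, 23.5 and 21.9 CPM in E8 control, with overlap (log2 change -0.064 with SE 0.065, adjusted p = 0.532), and had the highest level of the 3 per kilobase. FOXA1, active in endoderm and in hormone-responsive epithelia, was at 0.304 against 0.642 CPM, with no overlap between the media (log2 change -1.04 with SE 0.42, adjusted p = 0.0832). Of 11 partners and targets of FOXA in endoderm 7 had enough counts to be tested. By edgeR, DESeq2 and limma-voom 0 were called, and 1 had an unadjusted p under 0.05 in edgeR. The median log2 fold change was -0.58, with levels up to 1.45 CPM. AFP, the fetal serum protein of liver and yolk sac, was at 1.19 against 1.45 CPM, and CXCR4, a chemokine receptor of definitive endoderm, was at 0.830 against 1.06 CPM. The 6 definitive endoderm markers, FOXA2 among them, summed to 3.32, 3.11 and 3.19 CPM in PEG and HS against 4.67, 4.34 and 4.02 CPM in E8 control, with SOX17 at 0.00988 against 0.0124 CPM.

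FOXC1 (ENSG00000054598, chromosome 6, 1609915 to 1613897), a factor of mesoderm and of the eye, was at 7.12, 7.18 and 7.18 CPM in PEG and HS against 6.60, 6.49 and 5.93 CPM in E8 control. The media did not overlap, but the difference was not called (log2 change 0.18 with SE 0.084, adjusted p = 0.139). It is the last gene of a chromosome 6 cluster in which FOXQ1 and FOXF2 lie 74.8 kb apart and FOXF2 and FOXC1 214 kb apart. FOXQ1 was at 0.0886 against 0.0371 CPM and FOXF2 at 0.0630 against 0.0853 CPM. On chromosome 16 FOXF1, FOXC2 and FOXL1 lie within gaps of 51.4 and 6.64 kb, and FOXC2 and FOXL1 were at 0.526 against 0.594 and 0.154 against 0.242 CPM. FOXE3 and FOXD2 lie 20.0 kb apart on chromosome 1, with FOXE3 at 0.0592 against 0.109 CPM.

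Mesoderm genes that are studied with FOXC and FOXF were mixed. Of 12 genes 10 were tested, 1 was higher and 3 were lower, with a median log2 fold change of -0.13. KDR, a VEGF receptor, was higher at 59.8 ± 1.74 CPM in PEG and HS against 52.4 ± 1.65 CPM in E8 control (log2 change 0.19 with SE 0.038, adjusted p = 0.00176). TBX1, a factor of pharyngeal mesoderm, was at 6.63 ± 0.200 CPM in PEG and HS against 5.38 ± 0.831 CPM in E8 control (log2 change 0.29 with SE 0.11, adjusted p = 0.0582). MEOX1, a somite gene, had 0 counts in PEG and HS and 4, 6 and 1 in E8 control, at least 3.68-fold lower against a floor of 3 counts over the group, and the median was the same with MEOX1 at this bound. TBX6 and HAND1 were also lower. HAND1 had 1, 0 and 0 counts in PEG and HS against 6, 7 and 2 in E8 control. Its ratio of E8 control to PEG and HS was 15.0 (95% interval 2.31 to 633) by counting error. MEOX1 and HAND1 reached the minimum of 10 counts through E8 control alone, so neither is support for a fall in this list. The 4 calls became 2 without PEG and HS replicate 2 or 3, without E8 control replicate 1, with DESeq2 or with edgeR's own expression filter.

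**Figure D4:**
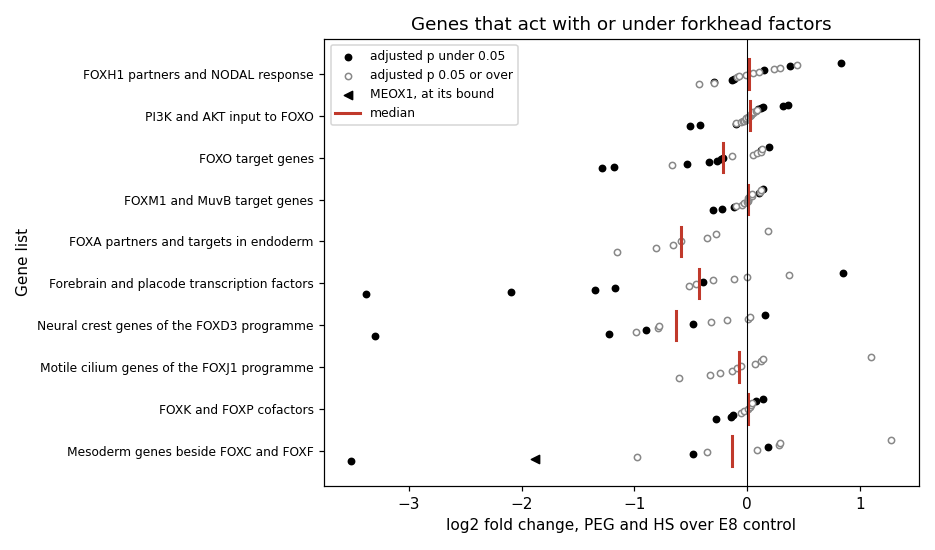
Log2 fold change (PEG and HS over E8 control) of each tested gene of the 10 lists of partners, regulators and targets, filled where the adjusted p was under 0.05, with the median of each list as a line. The FOXO target, forebrain, neural crest and mesoderm lists have medians below 0 with called genes far to the left, and MEOX1 is drawn as a triangle at its bound.

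Levels of different genes were compared per kilobase of merged exon length, as CPM per kilobase in E8 control, and the order is given for the 23 genes at 1 CPM or more in each library of a medium. FOXH1 had 49.8 ± 0.815 and FOXM1 39.1 ± 0.498. They were followed by FOXN3 at 21.3 ± 0.407 and FOXO1 at 20.9 ± 0.458, which overlapped each other, then FOXD3 at 16.2 ± 0.368. FOXO4 (12.6 ± 0.462), FOXI3 (11.7 ± 0.738) and FOXA3 (10.5 ± 0.536) formed a group in which neighbours overlapped. FOXJ3, FOXK2, FOXO3, FOXB1 and FOXP4 lay between 9.50 and 5.20, with FOXB1 and FOXP4 overlapping. FOXO3B, FOXJ2 and FOXN2 lay between 4.43 and 3.99, each overlapping its neighbour. The lowest of the 23 were FOXJ1 and FOXK1 (1.99 and 1.83, overlapping), FOXC1 (1.59), FOXO6 and FOXA2 (1.15 and 0.977, overlapping), FOXP1 (0.717) and FOXD1 (0.427). Of the 22 pairs of neighbours in this order 8 overlapped. The order depends on the length used. With the longest transcript in place of merged exons FOXM1 came first at 54.1, FOXK2 was at 17.2 and FOXP1, whose merged exons are long, at 3.28. In PEG and HS FOXI3 was at 4.06 and FOXD3 at 20.2 on the merged exon scale.

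**Figure D5:**
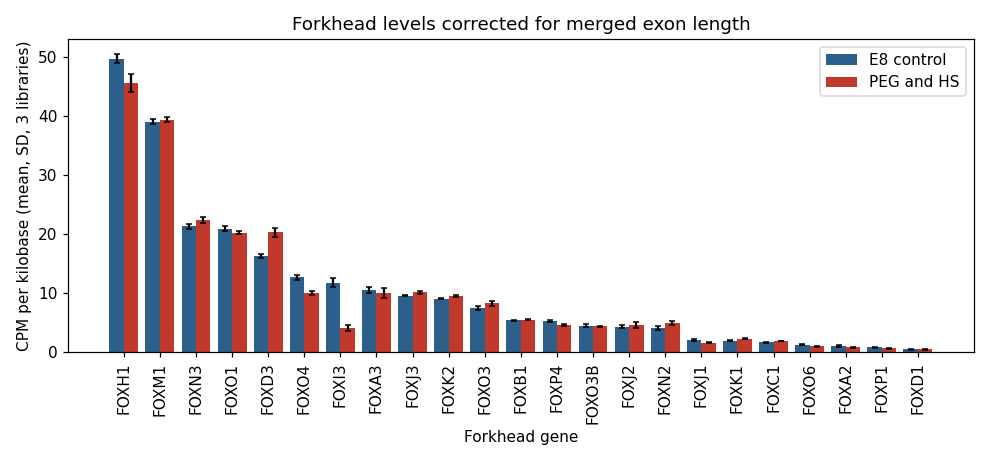
Mean CPM per kilobase of merged exon length with SD over 3 libraries, for the 23 forkhead genes at 1 CPM or more in each library of a medium, ordered by E8 control. FOXH1 and FOXM1 are highest, and FOXI3 is the gene whose 2 bars differ most in proportion.

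The genes that stayed low made up the rest of the family. In all, 28 of the 51 members were under 1 CPM in at least 1 library of each medium. Of these 15 were tested, and FOXB2 and FOXI2 were called. The other 13, among them FOXA1, FOXC2, FOXE3, FOXL1, FOXL2, FOXN4, FOXQ1 and FOXS1, had means of 0.0371 to 1.24 CPM and adjusted p of 0.0832 to 0.970, with standard errors on the log2 scale from 0.25 in FOXL2 to 1.16. FOXL2, the factor of ovarian granulosa cells, was the highest of them at 1.16 against 1.24 CPM. Of the 13 members with too few counts to test, FOXI1, FOXN1, FOXR2 and FOXD4L6 had none. FOXD2, FOXD4L1, FOXD4L3, FOXD4L4, FOXD4L5, FOXE1, FOXF1, FOXL3 and FOXR1 had at most 9 over the 6 libraries.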

How the data were processed

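Polyadenylated RNA of 6 libraries was sequenced with a stranded kit. Per the labels and methods, the authors trimmed reads with Trim Galore 0.6.7, mapped them to GRCh38 with STAR 2.6.1 and deposited raw counts per gene, 1 table per library. The counting tool, its use of strand and the annotation release are not given in the sources used here. Symbols, positions and lengths came from GENCODE 44 (GRCh38).

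Genes with at least 10 counts over the 6 libraries were scaled with TMM, and the media were fitted without covariates by glmQLFit and glmQLFTest of edgeR 4.0.16 (R 4.3.3). The p-values of all these genes were adjusted after Benjamini-Hochberg. SE was derived from the log2 fold change and the F statistic. On simulated counts for this comparison (16387 genes, 200 of those over 1 CPM changed by a log2 of 1) 98.5% were recovered and 4.37% of calls were false. Smaller changes, and changes in genes at lower levels, were not simulated, so recovery is not known for them. In the data a small difference passed the test in FOXH1 (log2 change -0.13) and did not in FOXN3 (log2 change 0.066), both genes with many counts.

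Members and lists were chosen with earlier results of these data known, and no list was tested as a set. Named are forkhead genes at 1 CPM or more in each library of a medium or called, given per library, and from each list, given per library or as means, the called gene with the largest change in each direction and the 2 with the highest CPM in E8 control. Other genes were chosen after their values were seen, and some genes that the rule takes are not reported here. Shared sequence is the share of 31-base words of a gene's transcripts found in other genes, and genes sharing 50% or more formed families. Alternatives were DESeq2 1.42.0, voom in limma 3.58.1, other scalings, filters and thresholds, added near-identical copies, the replicate block, each library left out and transcript length.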

Additional observations from a re-analysis of the deposited data

How the results depend on the processing

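No called forkhead gene changed direction under the alternatives in which it was refitted, and genes of the lists were followed by counts of calls alone. Of the refitted values of single forkhead genes, 331 kept their side of the threshold, 17 fell short of it and 2 newly passed it, each of them named beside its gene. At an adjusted p under 0.01 the forkhead genes called lower went from 8 to 4, and those called higher from 4 to 3. The share of all genes called at this threshold was not counted, so these numbers cannot be set against it. With DESeq2 4 were higher and 6 lower. With 1 library left out 3 to 4 forkhead genes were higher and 6 to 8 lower. In the same leave-one-out fits the number of called genes was 2 to 4 for the mesoderm list, 3 to 5 for the neural crest list and 2 to 5 for the FOXM1 list. The mesoderm list had 2 called genes in place of 4 with DESeq2 and with edgeR's expression filter. Of its called genes HAND1 and MEOX1 had 16 and 11 counts over the 6 libraries, and the cause was not tested. Over all genes DESeq2 called 3367, and leaving out 1 library gave 3114 to 3674, against 4173.

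Whether replicate numbers mark paired samples is not settled. Deviations of same-numbered libraries correlated at 0.0052, 0.0137 and 0.0039 over all genes tested. PEG and HS replicates 1 and 2 correlated best with the E8 control library of their own number, and replicate 3 did not. Counting noise enters these deviations too, so low correlations cannot exclude pairing. With the replicate block 4 forkhead genes were higher and 8 lower, and 4444 genes were called in all. The block changed no forkhead call. With the longest transcript as length 22 forkhead genes in place of 20 were at 1 CPM per kilobase or more in E8 control. Depth limits the genes under about 1 CPM, where a few counts decide a value.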
